A study of Mus musculus with 24 samples.

Results

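The 10 glutathione S-transferase genes Gsta2, Gsta3, Gsta4, Gstm1, Gstm2, Gstm4, Gstm5, Gstp1, Gstt1 and Gstk1 were chosen by symbol from the 37315 genes in the tables of allelic counts, and each had 1 row in the kidney table and in the cell line table. All samples come from a female F1 mouse, or cells, of the cross 129S1/SvImJ x CAST/EiJ, and all, kidney and cell lines alike, are labelled as control. The 18 kidney libraries were made from aliquots of 1 total RNA of the left kidney of 1 adult. They form Experiment 1 (NEBNext kit, 100 ng of RNA), Experiment 2 (SMARTseq v4 kit, 10 ng) and Experiment 3 (SMARTseq v4 kit, 0.1 ng), with 6 libraries each. Abl.1 and Abl.2 are B-cell lines immortalised with Abelson virus, each grown from 1 clone and kept in growth medium, with 2 SMARTseq libraries of 10 ng each. Replicates are therefore library preparations, and the p-values below measure technical spread, not differences between animals or cultures.

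Glutathione S-transferases join the thiol of glutathione to electrophilic compounds, which makes these compounds more soluble and readies them for export. The alpha, mu, pi and theta classes are cytosolic enzymes that work as dimers, and the kappa enzyme sits in mitochondria and peroxisomes. In the kidney the proximal tubule is known for handling glutathione conjugates, and several transferase genes are known targets of the stress-response factor NRF2. Allelic imbalance (AI) is the share of a gene's allelic counts that lies in the column named maternal, which per the methods of the study holds the 129S1 allele, so that 0.5 stands for equal counts of both alleles. AI is given for a group only where its pooled counts reached 50. Levels are given as CPM, allelic counts scaled to a library total of 1000000 with genes on the X chromosome left out of the total. As reads count only at sites where the strains differ, a level can be compared between libraries for the same gene but not between genes.

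Kidney libraries held 6138693 to 6702351 allelic counts, and those of the Abl clones 19213150 to 22241719. All 10 kidney markers, among them Umod, Aqp2, Lrp2 and Nphs1, had counts in each experiment, with a summed level of 20020 to 30230 CPM over libraries. In the clones the same sum was 10.7 to 32.5 CPM, with 9 markers at 0 in Abl.1 and 6 in Abl.2. The 10 pre-B cell markers summed to 8127 to 10200 CPM in the clones and 9.85 to 23.7 CPM in kidney. Replicate 1 of Experiment 1 stood apart, since the overdispersion factor QCC (quality correction constant) of the 5 pairs that hold it was 2.05 to 2.16 and that of the other 10 pairs was 1.67 to 1.81. Known imprinted genes with at least 50 counts pointed against the column names for 10 of 11 in Experiment 1 and 9 of 10 in Experiments 2 and 3, while 1 of 1 in Abl.1 and 2 of 2 in Abl.2 pointed the way the columns are named, so AI is described here by column and not by parent. Both tables nevertheless held the same strain in the same column, as 42 of 100 genes with a kidney AI above 0.9 were also above 0.9 in Abl.1, where 3 were below 0.1, and 45 of 99 in Abl.2, where 2 were below 0.1.

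Promoters of 9 of the 10 genes were matched in RefSeq (GRCm38.p6), each as 300 bases from 250 before to 50 after the start. They differ in CpG content, and 3 are printed because they span the range from a gene with high kidney counts and none in the clones, Gsta2, over a CpG-rich gene that also had no counts in the clones, Gstm5, to the gene that was higher in both clones, Gstp1. Capitals mark CpG sites.
Gsta2, chr9:78347096-78347395 (minus strand): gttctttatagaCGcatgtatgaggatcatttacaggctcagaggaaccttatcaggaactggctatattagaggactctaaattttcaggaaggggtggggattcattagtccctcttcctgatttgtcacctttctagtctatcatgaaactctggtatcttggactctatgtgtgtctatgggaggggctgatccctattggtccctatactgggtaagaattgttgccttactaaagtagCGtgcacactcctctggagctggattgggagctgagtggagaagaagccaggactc
Gstm5, chr3:107895604-107895903 (plus strand): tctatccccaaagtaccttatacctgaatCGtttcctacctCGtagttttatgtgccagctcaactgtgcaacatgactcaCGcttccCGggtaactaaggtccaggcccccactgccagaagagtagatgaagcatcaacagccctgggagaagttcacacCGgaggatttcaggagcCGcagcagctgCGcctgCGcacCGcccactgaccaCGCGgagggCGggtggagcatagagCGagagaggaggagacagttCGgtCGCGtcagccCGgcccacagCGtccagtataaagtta
Gstp1, chr19:4037863-4038162 (minus strand): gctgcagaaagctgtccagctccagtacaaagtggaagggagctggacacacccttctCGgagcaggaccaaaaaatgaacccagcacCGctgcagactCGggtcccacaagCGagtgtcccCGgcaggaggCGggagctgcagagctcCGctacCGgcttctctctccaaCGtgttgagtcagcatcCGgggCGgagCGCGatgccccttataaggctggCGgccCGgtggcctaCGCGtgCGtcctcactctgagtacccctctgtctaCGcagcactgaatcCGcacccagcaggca
The Gsta2 window holds 2 CpG sites and lies inside the span that the tables give for this gene. The Gstm5 window holds 18 and the Gstp1 window 20, against a median of 7 over 27025 promoters. In the others the number was 2 in Gsta3, 3 in Gstm2, 8 in Gstt1, 13 in Gstk1, and 14 in Gstm1 and in Gstm4. The core of the antioxidant response element, TGACNNNGC, searched on both strands, matched in Gsta3 and Gstm5 and in 12.5% of all promoters. A TATAAA match was found in Gsta2 and Gstm5 and in 14.2% of all promoters, and GGGCGG in Gstm4, Gstm5, Gstp1 and Gstk1 and in 35.9% of all. The 3 motifs were searched separately of each other, and a match describes letters only.

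Across the kidney experiments, all 10 genes were higher with the SMARTseq kit at 10 ng than with the NEBNext kit, where 35.6% of all 12464 genes tested were higher and 71.4% passed the test in either direction (edgeR's quasi-likelihood test, adjusted p under 0.05). The libraries of both experiments did not overlap for 9 of the 10, against 61.6% of all genes. The median difference of the 10 was 1.36 on the log2 scale, and that of all genes was -0.04. These differences use TMM scaling, which lies 0.34 above the CPM scale in log2 units for this comparison. Scaled by allelic totals alone, 26.9% of all genes were higher and 48.1% lower in place of 35.6% and 35.8%, the median of the 10 on the CPM scale was 1.02, and Gstm4 no longer passed. Kit and input amount changed together and cannot be told apart here.

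**Figure D1:**
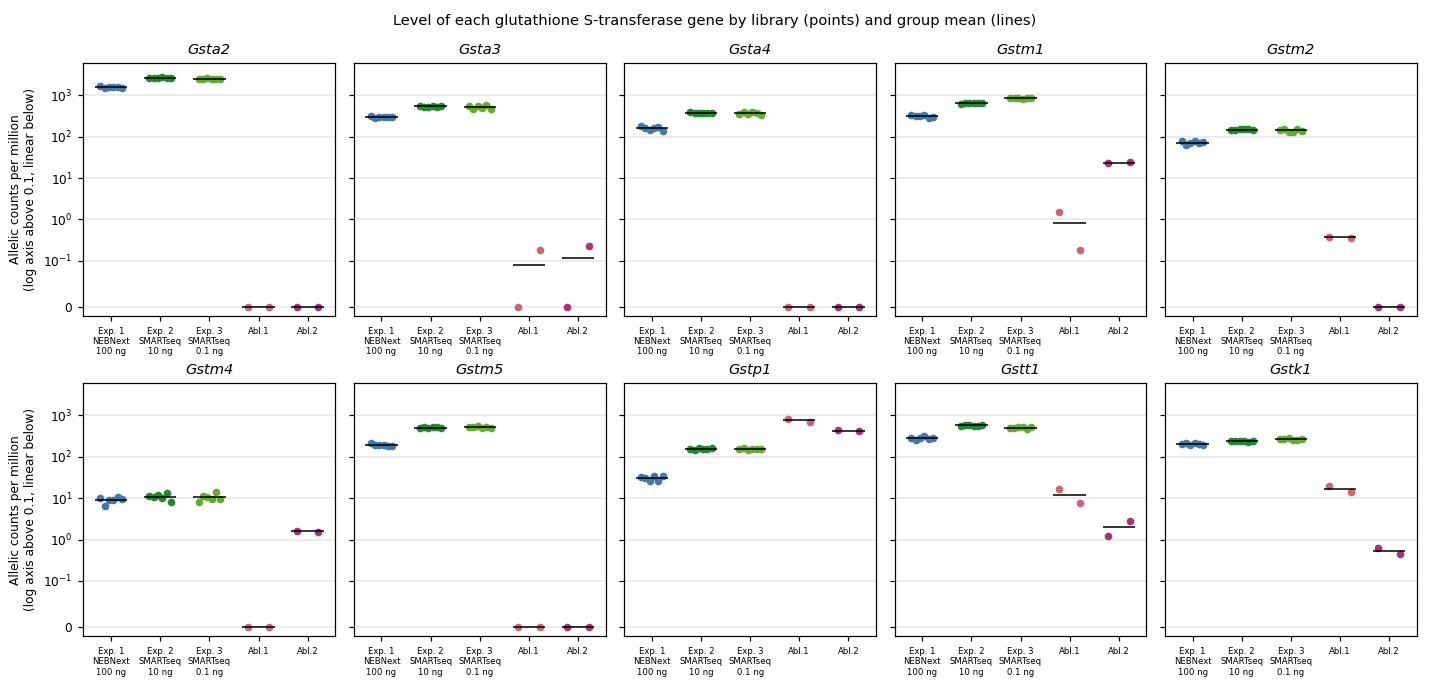
Level of each gene in CPM (vertical axis, log above 0.1 and linear below) in every library (points) of the 5 groups, with group means as lines. In 9 panels the kidney libraries lie above the clones, while Gstp1 is at 26.0 to 166 CPM in kidney and 425 to 838 CPM in the clones.

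The alpha class genes lie on chromosome 9 (in GRCm38 as the tables give it, Gsta2, chr9:78331018-78355788 and Gsta4, chr9:78182774-78209349) and chromosome 1 (Gsta3, chr1:21240589-21265661). Gsta2, an inducible alpha enzyme, had 1513, 1574 and 1672 CPM as lowest, median and highest library of Experiment 1. In Experiment 2 these levels were 2627, 2646 and 2735 CPM, and in Experiment 3 they were 2432, 2511 and 2553 CPM. All libraries of Experiment 1 were thus below all others, and those of Experiment 3 were below those of Experiment 2. The log2 difference was 1.09 (95% interval 1.04 to 1.15, adjusted p = 3.07e-23) between Experiments 1 and 2. With less input the level fell by 0.09 on the log2 scale (interval -0.14 to -0.04, adjusted p = 0.0163). In both clones each library had 0 counts.

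Gsta4, which clears the lipid peroxidation product 4-hydroxynonenal, had 140, 159 and 185 CPM in Experiment 1, 367, 379 and 384 CPM in Experiment 2 and 336, 364 and 397 CPM in Experiment 3. Its libraries did not overlap between kits, with a log2 difference of 1.58 (1.46 to 1.70), but did so between the inputs of 10 and 0.1 ng. Gsta3, known in the mouse for conjugating the aflatoxin epoxide, had 275, 302 and 316 CPM in Experiment 1, 513, 539 and 554 CPM in Experiment 2 and 463, 524 and 585 CPM in Experiment 3. It differed by 1.18 (1.07 to 1.28) between kits, and its 6 values in Experiment 3 had a coefficient of variation of 9.46%, against 3.18% in Experiment 2. Gsta4 had 0 counts in all 4 libraries of the clones. For Gsta3, 1 library of each clone had 0 counts, and the others had 4 counts in Abl.1 and 5 in Abl.2.

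The mu class genes lie together on chromosome 3, in the order Gstm5 (chr3:107895821-107898686), Gstm2 (chr3:107981702-107986453), Gstm1 (chr3:108012255-108017973) and Gstm4 (chr3:108040408-108044894). Gstm1, a main mu enzyme of liver and kidney, had 290, 309 and 341 CPM in Experiment 1, 623, 642 and 653 CPM in Experiment 2 and 791, 858 and 878 CPM in Experiment 3. All 3 experiments were separate from each other. The difference between kits was 1.37 (1.28 to 1.45). From 10 to 0.1 ng the level rose by 0.40 (0.32 to 0.48, adjusted p = 3.31e-08), the widest of the 4 differences that passed between these inputs.

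Gstm5, a mu enzyme known best from testis and brain, had 181, 190 and 221 CPM in Experiment 1, 488, 504 and 519 CPM in Experiment 2 and 500.1, 528 and 548 CPM in Experiment 3. The kits differed by 1.72 (1.63 to 1.81), and the inputs by 0.06 (-0.03 to 0.14, adjusted p = 0.434). Gstm2 had 61.4, 72.2 and 79.6 CPM in Experiment 1, 142, 149 and 155 CPM in Experiment 2 and 132, 141 and 153 CPM in Experiment 3, a kit difference of 1.38 (1.25 to 1.51). Gstm4 was counted least, with 6.46, 9.41 and 10.8 CPM in Experiment 1, 8.13, 10.9 and 13.0 CPM in Experiment 2 and 8.17, 10.3 and 13.8 CPM in Experiment 3. At 41 to 91 counts per library its 3 experiments overlapped, and the kit difference of 0.58 (0.24 to 0.92, adjusted p = 0.00285) was 0.24 (adjusted p = 0.18) without TMM.

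The pi gene Gstp1 (chr19:4035407-4037921), an enzyme common in dividing cells, had the widest kit difference of the 10, 2.69 (2.55 to 2.83). Its levels were 26.0, 30.9 and 34.3 CPM in Experiment 1, 146, 154 and 166 CPM in Experiment 2 and 143, 156 and 163 CPM in Experiment 3. The Experiment 1 libraries were far below the rest, and those of Experiments 2 and 3 overlapped. Gstp1 is also the gene that shares most sequence with a near copy: 57.7% of the 75-base windows of its longest transcript occur in Gstp2 as well. The same share was 46.9% for Gsta2 (mostly Gm10639), 14.8% for Gstm1, 3.13% for Gstm2 and 0 for the other 6. In 150-base windows, the read length of the clones, it was 41.8% for Gstp1, 26.8% for Gsta2 and 0 for the other 8, so that values of Gstp1 and Gsta2 are uncertain to the extent that unique alignment drops such reads.

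The theta gene Gstt1 (chr10:75783813-75798584), whose enzyme acts on small halogenated compounds, had 261, 286 and 313 CPM in Experiment 1, 558, 573 and 597 CPM in Experiment 2 and 477, 505 and 531 CPM in Experiment 3. All 3 experiments were separate, with a kit difference of 1.36 (1.27 to 1.45). From 10 to 0.1 ng it fell by 0.19 (interval -0.28 to -0.11, adjusted p = 0.00139). The kappa gene Gstk1 (chr6:42245935-42250447) had 192, 204 and 210 CPM in Experiment 1, 232, 238 and 246 CPM in Experiment 2 and 249, 266 and 278 CPM in Experiment 3. Its kit difference was 0.58 (0.50 to 0.66), and it rose by 0.15 (0.07 to 0.23, adjusted p = 0.0102) with less input.

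Between the inputs of 10 and 0.1 ng, 4 of the 10 genes passed, Gstm1 and Gstk1 higher and Gstt1 and Gsta2 lower, where 15.7% of all genes passed, 9.08% higher and 6.57% lower. The libraries of the same 4 genes did not overlap, against 8.66% of all genes. For the other 6 the differences lay between -0.07 and 0.06. Against Experiment 1, all 10 were also higher at 0.1 ng, by 0.54 for Gstm4 to 2.68 for Gstp1 (71.7% of all genes passed and 35.7% were higher), and 9 of the 10 did not overlap, against 53.7% of all genes. Without TMM 27.3% of all genes were higher and 48.2% lower in that comparison, and Gstm4 no longer passed. Both comparisons share the libraries of Experiment 1.

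Transcript length moved with the kit difference over all genes. The median difference was 1.64 for the 772 genes whose longest transcript is under 1000 bases, 0.94 from 1000 to 2000, -0.02 from 2000 to 4000 and -0.54 above 4000, with a Spearman rho of -0.522 across 12360 genes, given as a description. Gsta2 (870 bases), Gsta4 (977) and Gstp1 (821) belong to the shortest class, in which 77.8% of genes were higher. Gsta2 at 1.09 lay below its class median and Gstp1 at 2.69 above it. Gstm1, Gstm2, Gstm5 and Gstt1 (1064 to 1289 bases) lay above the median of theirs, and Gstk1 (1396) and Gstm4 (1707) below. Gsta3 is plotted at 2792 bases, the length of a transcript of 1 exon that may not be the mRNA counted, so its class is uncertain and its difference of 1.18 is set against none. The part of length in these differences was not tested.

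**Figure D2:**
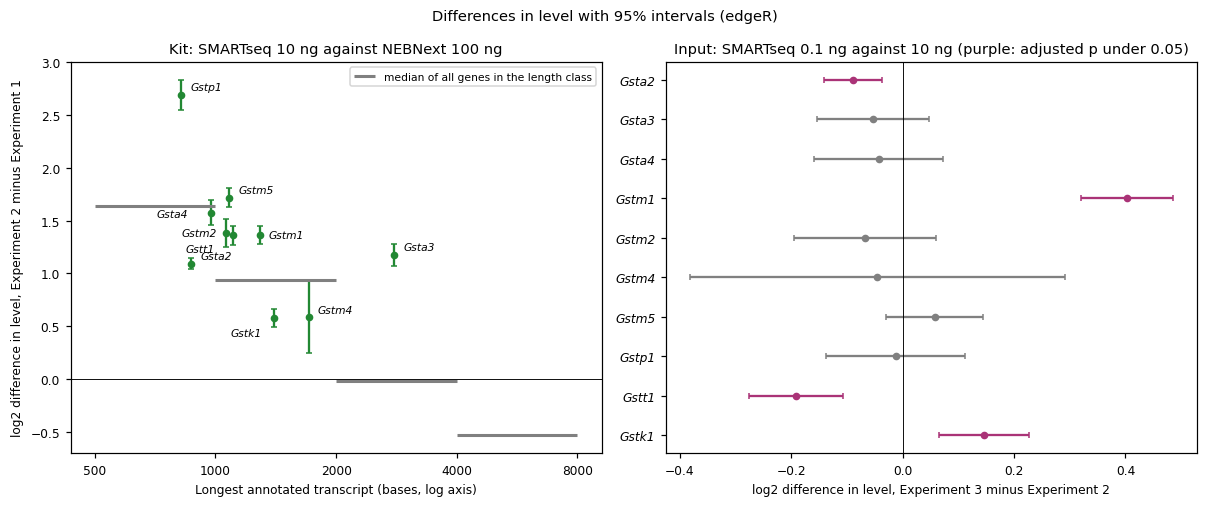
Left, log2 difference in level of each gene between Experiments 2 and 1 (points, 95% intervals from edgeR) against its longest annotated transcript in bases (log axis), with medians of all genes per length class in grey; Gstp1 is at 2.69 and Gstk1 at 0.58. Right, log2 difference between Experiments 3 and 2, where Gstm1 (0.40), Gstk1 (0.15), Gstt1 (-0.19) and Gsta2 (-0.09) in purple had an adjusted p under 0.05.

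The other genes around these enzymes were counted in the same fits. Between the kits 35.6% of all genes were higher with SMARTseq at 10 ng and 35.8% lower. Of 16 other transferase genes, 11 were tested between the kits and 9 were higher with SMARTseq at 10 ng, none lower. Among them the microsomal Mgst3 was at 361 CPM in Experiment 1 and 962 in Experiment 2, the omega gene Gsto1 at 90.8 and 215, and the theta gene Gstt2 at 2.70 and 29.6 (means of 6). Of 16 genes of glutathione synthesis, recycling and use, 14 were tested, and 10 were higher and 4 lower. The peptidase Anpep, which trims glutathione breakdown products, went from 277 to 51.9 CPM and the 5-oxoprolinase Oplah from 163 to 25.6, while the glutathione reductase Gsr, at 179 CPM in Experiment 1, rose by 1.09 on the log2 scale. Of 12 genes of NRF2 and its other targets, 5 were higher and 5 lower, with Cbr1 (476 to 862 CPM) and Nqo1 (30.6 to 67.3) higher and Txnrd1 (249 to 126) lower. Without TMM these splits were 9 higher and none lower for other transferases, 8 higher and 4 lower for glutathione genes, and 3 higher and 6 lower for NRF2 genes. The list medians were 1.48, 0.56 and -0.02 with TMM, and 1.14, 0.23 and -0.36 without it.

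Against Experiment 1, 35.7% of all genes were higher and 35.9% lower at 0.1 ng. The library set at 0.1 ng gave 9 of 11 other transferases higher, 10 glutathione genes higher and 3 lower, and 5 NRF2 genes in each direction. Without TMM these were 8 and 0, 6 and 5, and 4 and 6, higher and lower in that order. Between both inputs of the SMARTseq kit, 15.7% of all genes passed. Of 11 other transferases 1 passed, the zeta gene Gstz1, at 938 CPM with 10 ng and 861 with 0.1 ng. In the glutathione list 6 of 14 passed, 2 higher and 4 lower, with Anpep at 51.9 and 32.9 CPM, the gamma-glutamyl transferase Ggt1 at 841 and 1021, and the dipeptidase Dpep1 at 796 and 717. In the NRF2 list 4 of 12 passed, 2 in each direction, with Nfe2l2, the gene of NRF2 itself, at 58.3 and 72.3 CPM and the malic enzyme Me1 at 187 and 160 CPM.

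AI of the same lists was tested in kidney too. Between Experiments 1 and 2, 0 of 8 other transferases (2 at an unadjusted p under 0.05), 6 of 13 glutathione genes and 5 of 11 NRF2 genes passed in edgeR's test, beside 10.6% of all genes. Between Experiments 2 and 3, none of the 9, 13 and 12 tested genes of the lists did, beside 0.659% of all genes. At an unadjusted p under 0.05 there were 3, 0 and 4. The share of all genes at an unadjusted p is not given for either comparison, so whether the unadjusted counts exceed it cannot be read.

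AI of the 10 genes in kidney fell on both sides of 0.5. In Experiment 2, 8 of the 10 differed from 0.5 in the QCC-corrected proportional test with Bonferroni adjustment, where 24.5% of all genes did, 13% with the maternal and 11.4% with the paternal column higher. Gsta2, Gsta4, Gstm5, Gstp1 and Gstt1 had more counts in the maternal column, and Gstm1, Gstm2 and Gstk1 had more in the paternal column. The same 8 genes passed in Experiment 3 (14.3% of all genes, 7.4% with the maternal and 6.86% with the paternal column higher). Of these, Gstm1 had an adjusted p of 0.0141 in Experiment 3 and was lost without replicate 1, 2, 5 or 6 (adjusted p up to 0.388). In Experiment 1 the test was passed by 6, Gsta2, Gsta3, Gstm1, Gstm2, Gstt1 and Gstk1 (18.4% of all genes, 9.62% and 8.73% by column). Gstm4 passed in none of the 3.

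Gstk1 was the farthest from 0.5 of the 10 in each kidney experiment. Its lowest, median and highest AI over libraries were 0.289, 0.335 and 0.348 for Experiment 1. For Experiment 2 they were 0.297, 0.314 and 0.345, and for Experiment 3 they were 0.251, 0.298 and 0.330. Every one of the 18 libraries was below 0.35. Gstm2 was at 0.3498 to 0.431, 0.343 to 0.395 and 0.300 to 0.376 in the 3 experiments, also below 0.5 in each library. Gstm1 was at 0.435 to 0.458, 0.440 to 0.479 and 0.455 to 0.487.

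On the other side, Gstp1 was at 0.526 to 0.639, 0.582 to 0.622 and 0.573 to 0.644 in Experiments 1, 2 and 3. Gstt1 was at 0.521 to 0.618, 0.594 to 0.610 and 0.590 to 0.636. Both were above 0.5 in all 18 libraries. Gsta2 was at 0.541 to 0.579, 0.583 to 0.596 and 0.567 to 0.605, and Gsta4 at 0.506 to 0.576, 0.556 to 0.596 and 0.539 to 0.593, again above 0.5 throughout.

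The mu cluster on chromosome 3 held both directions. In Experiment 2 the pooled AI was 0.599 for Gstm5 (QCC-corrected 95% interval 0.589 to 0.609), 0.360 for Gstm2 (0.342 to 0.378), 0.462 for Gstm1 (0.453 to 0.471) and 0.466 for Gstm4 (0.398 to 0.537). Gstm7, which lies between Gstm5 and Gstm2, was at 0.209 over 699 counts. The intervals of Gstm5, Gstm2 and Gstm1 were apart from each other, and that of Gstm4 held the value of Gstm1. On chromosome 10, Gstt1 was at 0.600 and Gstt3, at -9.70 kb (towards lower coordinates), at 0.277. On chromosome 19, Gstp1 was at 0.607 and Gstp2, 4.88 kb away, at 0.0643 over 249 counts, and these 2 share sequence as given above. On chromosome 9, Gsta2 was at 0.592 and Gm10639, at -41.1 kb, at 0.206 over 15704 counts, and these 2 share sequence too. The part of shared sequence in these AI values was not tested.

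**Figure D3:**
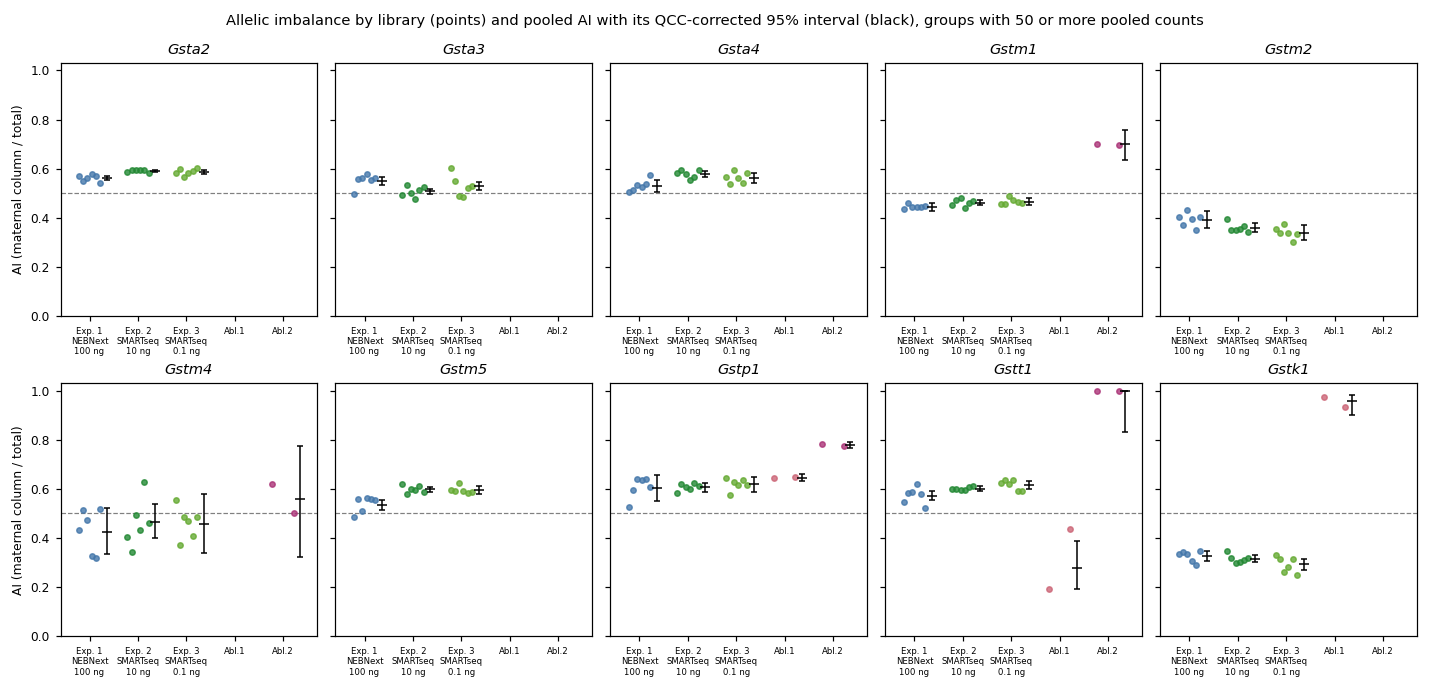
AI (vertical axis, counts of the maternal column over all allelic counts) of each gene by library (points), with the pooled AI and its QCC-corrected 95% interval in black, for groups with at least 50 pooled counts; the dashed line is 0.5. Gstk1 is below 0.35 in all kidney libraries and at 0.934 and 0.9753 in Abl.1, and Gstt1 is at 0.192 and 0.436 in Abl.1 and at 1 in both Abl.2 libraries.

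Between Experiments 1 and 2 the allelic ratio of 4 of the 10 genes differed, 3 with a higher and 1 with a lower maternal share in Experiment 2, where 10.6% of all genes passed, 5.61% higher and 4.95% lower. Differences are given as log2 of the maternal to paternal ratio. Gstm5 rose by 0.37 (0.22 to 0.51, adjusted p = 0.000542), and all AI values of Experiment 2 (0.577 to 0.621) exceeded those of Experiment 1 (0.485 to 0.563). Gsta2 rose by 0.18 (0.11 to 0.24, adjusted p = 0.000209). These 2 were the genes whose libraries did not overlap, against 6.32% of all genes. Gsta4 rose by 0.28 (0.14 to 0.42, adjusted p = 0.00668) with overlapping libraries.

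Gsta3 fell by 0.26 (interval -0.40 to -0.12, adjusted p = 0.00981), from 0.498, 0.560 and 0.579 in Experiment 1 to 0.478, 0.508 and 0.534 in Experiment 2. Its lowest library in Experiment 1 was replicate 1, the one that stood apart. Without that library the differences of the 4 genes were still past the threshold. In a QCC-corrected test between the groups, 2 of the 4 passed, Gstm5 and Gsta2. Against Experiment 3, Gstm5 (0.34, adjusted p = 0.0163) and Gsta2 (0.16, adjusted p = 0.0393) passed, where 6.24% of all genes did (3.32% higher and 2.92% lower), and 1 gene did not overlap, Gstm5, against 4.89%. Between Experiments 2 and 3 none of the 10 passed in edgeR's test, in DESeq2 or in the QCC-corrected test, where 0.659% of all genes passed in edgeR. Of the 10, 0 had an unadjusted p under 0.05.

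The count for Experiments 1 and 3 depended on single libraries. Without replicate 3 of Experiment 1 it was 0, without replicate 4 it was 3, with Gstt1 added, and without replicate 2 or 6 of Experiment 1 or replicate 1, 2, 4, 5 or 6 of Experiment 3 it was 1, as Gsta2 no longer passed. The differences of Gsta2 lay between 0.13 and 0.18 and those of Gstm5 between 0.28 and 0.37 in these fits.

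The spread of AI between the 6 libraries of an experiment was set against the spread that counting error alone gives at the same depth. The ratio of both SDs had a median over the 10 genes of 1.68 (range 0.693 to 2.90), 1.52 (range 0.837 to 2.42) and 1.99 (range 1.08 to 5.08) for Experiments 1, 2 and 3. The QCC over all genes, which measures the same excess between pairs of libraries, was 1.85, 1.46 and 2.59. Gsta3 in Experiment 3 had the highest ratio, with an SD of 0.0435 where counting error gives 0.00856. Its libraries ran from 0.485 to 0.601, although each held 3065 to 3872 counts. Intervals and floors cover counting error, and for QCC-corrected ones also this excess, but no difference between animals. Counting error here takes counts as independent, although a read over several SNPs of a gene is counted at each.

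**Figure D4:**
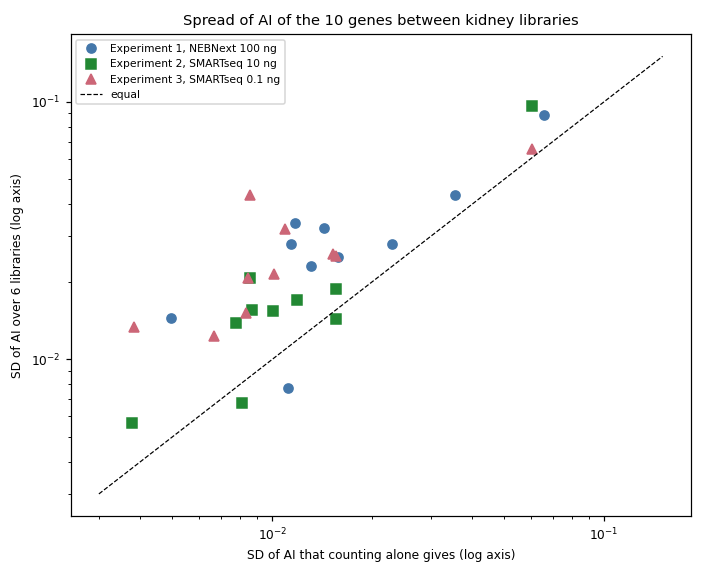
SD of AI between the 6 libraries of each kidney experiment (vertical axis, log) against the SD that counting error gives (horizontal axis, log), 1 point per gene and experiment (circles, squares and triangles for Experiments 1, 2 and 3), with a dashed line of equality. Gsta3 in Experiment 3 is the farthest above equality (0.0435 against 0.00856), and Gstt1 in Experiment 2 (0.00677 against 0.00808) lies below it.

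In both Abl clones 9 of the 10 genes were far lower than in kidney, and Gstp1 was higher. Compared with Experiment 2, which used the same kit and input, all 10 passed in each clone, where 81.7% of all genes passed in Abl.1 (36.1% higher, 45.6% lower) and 83% in Abl.2 (36.1% higher, 46.9% lower). For all 10 the clones lay apart from the kidney libraries, against 80.7% of all genes for Abl.1 and 87.1% for Abl.2. The clones also differ from kidney in read length (150 bases, paired, against 75), platform and tissue, which cannot be told apart. In bulk RNA of an organ, fewer cells of a type and less RNA per cell cannot be told apart either. Kidney markers were lower in the clones along with these genes, by the sums given above, and their part in the result was not tested.

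Gstp1 had 838 and 710 CPM in the Abl.1 libraries and 437 and 425 CPM in Abl.2, against 146 to 166 CPM in Experiment 2. The difference was 1.80 (1.61 to 1.99, adjusted p = 4.34e-10) for Abl.1 and 0.60 (0.39 to 0.80, adjusted p = 5.04e-05) for Abl.2. Scaling moves these values, to 2.32 and 1.47 without TMM, in the same direction. On the scale of allelic totals all differences from kidney lie 0.53 higher for Abl.1 and 0.88 higher for Abl.2, and 49.7% of all genes are then higher and 37% lower in Abl.2. The share of Gstp1 sequence that also occurs in Gstp2 differs between the read lengths of kidney and clones, and its part in these differences was not tested. Between the clones Gstp1 fell by 1.21 from Abl.1 to Abl.2 (interval -1.72 to -0.69, adjusted p = 0.00627).

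Gsta2, Gsta4 and Gstm5 had no count in any of the 4 libraries. With a floor of 3 counts over a group, Gsta2 was at least 36320-fold higher in kidney than in Abl.1 and at least 38100-fold higher than in Abl.2. The bounds were 5154-fold and 5406-fold for Gsta4 and 6857-fold and 7192-fold for Gstm5. Gsta3, with 4 and 5 counts per clone, was 5489-fold (counting interval 2143 to 20150) and 4606-fold (1973 to 14190) higher in kidney. For these genes the clones gave counts at or near 0. Their libraries held 19213150 to 22241719 allelic counts in all, against 6138693 to 6702351 in kidney. As read length differs too, these totals do not compare the numbers of reads sequenced.

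The mu genes differed between the clones. Gstm1 had 28 and 4 counts in Abl.1 (1.48 and 0.182 CPM) and 478 and 520 counts in Abl.2 (22.7 and 23.8 CPM). Both Abl.2 libraries were above both of Abl.1, by 4.46 on the log2 scale (2.55 to 6.37, adjusted p = 0.00635), and this difference was 6.66 without replicate 1 and 3.51 without replicate 2 of Abl.1. Gstm4 had 0 counts in Abl.1 and 34 in each library of Abl.2, at least 21.6-fold higher in Abl.2 (adjusted p = 0.00687). Gstm2 had 7 and 8 counts in Abl.1 and 0 in Abl.2, at least 5.25-fold higher in Abl.1, and was under the count minimum of the test. In Gstm1 kidney exceeded Abl.2 27.6-fold by counts (counting interval 25.9 to 29.4) and Abl.1, at 32 counts in all, by a fold with a counting interval of 580.4 to 1199. The fitted log2 difference of Abl.1 from Experiment 2 ran from -12.25 to -9.18 without 1 library.

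Gstt1 had 16.5 and 7.83 CPM in Abl.1 and 1.23 and 2.79 CPM in Abl.2, a fall of 2.97 on the log2 scale (interval -4.44 to -1.50, adjusted p = 0.0105). Gstk1 had 19.3 and 13.8 CPM in Abl.1 and 0.617 and 0.457 CPM in Abl.2, and fell by 5.30 (interval -6.33 to -4.26, adjusted p = 0.000445). For both genes the libraries of Abl.1 were above those of Abl.2. In all, 5 of the 10 had enough counts for the test between the clones and each of these 5 passed, where 46.3% of all genes did, 21.9% higher and 24.4% lower in Abl.2. For all 5 the libraries of the clones lay apart, as for 79.3% of all genes. Without TMM the split of all genes was 30.7% higher and 18.2% lower, and the 5 genes kept their directions. Without 1 library of Abl.2, either replicate, Gstm4 had too few counts for the test and Gstp1 no longer passed (adjusted p of up to 0.106), which left 3.

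AI in the clones could be read for 3 of the 10 genes in Abl.1 and 4 in Abl.2. Gstp1 had an AI of 0.643 and 0.647 in Abl.1, and 0.782 and 0.774 in Abl.2, all above the highest library of Experiment 2 (0.622). Libraries of Experiments 1 and 3 reached 0.639 and 0.644, so Abl.1 overlapped with Experiment 3. The log2 allelic ratio differed by 0.95 between the clones (0.79 to 1.11, adjusted p = 2.27e-05), where 26.4% of all genes passed. Against Experiment 2 it was higher by 1.18 in Abl.2 (0.98 to 1.38, adjusted p = 2.66e-09) and by 0.23 in Abl.1 (0.06 to 0.41, adjusted p = 0.0400). The call for Abl.1 was lost under 5 alternatives. Among them were DESeq2 (adjusted p = 0.0761), a replicate block and leaving out replicate 1 or 4 of Experiment 2. In all, 3 of the 3 genes tested passed against Abl.1 and 3 of the 5 tested against Abl.2, where 35.5% and 41% of all genes did. The 5 include Gstk1, which had 23 counts in Abl.2. Of those all-gene calls, 17.7% of genes were higher and 17.8% lower in Abl.1, and 20.8% higher and 20.1% lower in Abl.2.

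Gstt1 turned in opposite directions in the clones. In kidney its AI was near 0.6. The Abl.1 libraries were at 0.192 (312 counts) and 0.436 (172 counts), both below 0.5, and differed from Experiment 2 by -1.93 (interval -2.42 to -1.45, adjusted p = 2.48e-06). Without replicate 1 of Abl.1 this difference was -0.96. In Abl.2 all 26 and 61 counts were in the maternal column. The pooled AI of 1 over 87 counts had a Wilson interval of 0.958 to 1 and a QCC-corrected one of 0.830 to 1. The Wilson interval takes each count as independent, although a read pair over several SNPs counts at each, so it may be too narrow. The clones differed by 9.64 (6.29 to 12.99, adjusted p = 0.00227), and Abl.2 differed from Experiment 2 by 6.79 (5.57 to 8.002, adjusted p = 1.29e-08), both with a paternal count of 0 in Abl.2, so that their size depends on the prior count. In the test of each clone against 0.5, neither passed, with a Bonferroni-adjusted p of 0.163 in Abl.2 and 1 in Abl.1, and the call between Experiment 2 and Abl.2 was lost in the QCC-corrected test between groups. When the same Abl.2 libraries were sequenced again, all 132 counts were in the maternal column, and with both runs summed Gstt1 passed against 0.5. The second run is no new replicate, and the sum takes repeated reads of the same libraries as independent, so it adds no independent evidence.

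Gstk1 had an AI below 0.35 in each kidney library and of 0.9753 (365 counts) and 0.934 (304 counts) in Abl.1. The log2 allelic ratio differed by 5.56 (5.09 to 6.03, adjusted p = 1.63e-12). In Abl.2 it had 23 counts, 9 of them in the maternal column, which is below the 50 counts set for an AI. Its difference between the clones of -5.18 (adjusted p = 0.0261) rests on those 23 counts and was lost without replicate 1 of Abl.1 or replicate 2 of Abl.2.

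Gstm1 had an AI of 0.699 and 0.698 in the Abl.2 libraries, where all 18 kidney libraries were below 0.5. Sequenced again, the same Abl.2 libraries gave Gstm1 a wider spread, 0.746 (527 counts) and 0.641 (549 counts). In the first run the log2 allelic ratio of Gstm1 differed from Experiment 2 by 1.43 in edgeR's test (1.23 to 1.64, adjusted p = 2.86e-10). In Abl.1 the 32 counts gave no AI. Gstm4 had a pooled AI of 0.559 over 68 counts in Abl.2 (QCC-corrected interval 0.320 to 0.773), not distinguishable from 0.5 or from kidney at this depth (adjusted p = 0.442). Against 0.5, Gstp1 and Gstk1 passed in Abl.1 (22.6% of all genes) and Gstp1 and Gstm1 in Abl.2 (30% of all genes).

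The 5 nearest genes on either side with at least 50 counts were read for the same groups. Around Gstt1 in Abl.2 the 10 neighbours had a median AI of 0.349 and 1 of 10 was above 0.5, the theta gene Gstt2, 47.3 kb away, at 0.862. Gstt3, at -9.70 kb, was at 0.287 in Abl.2 and 0.386 in Abl.1. Gstt2 was at 0.197 in Abl.1 and 0.538 in Experiment 2, and its allelic ratio also differed between the clones, by 4.71 (adjusted p = 0.000321). Around Gstt1 in Abl.1 the median was 0.4998, with neighbours from 0 to 0.913.

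Around Gstk1 in Abl.1 the neighbours ran from 0.195 to 1 with a median of 0.542, and the nearest, Casp2 at 19.1 kb, was at 0.581 over 2258 counts. Only Casp2 and Zyx lay within 110 kb. Around Gstm1 in Abl.2 the median was 0.517 (0.339 to 0.604), all below Gstm1. Around Gstp1 the medians were 0.514 in Abl.1 and 0.522 in Abl.2. Gstp3, 22.1 kb from Gstp1, had an AI of 0 in Abl.1 and 0.00353 in Abl.2. Gstp2 was at 0.518 in Abl.1, where it was at 0.0926, 0.0643 and 0.0306 in the kidney experiments.

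**Figure D5:**
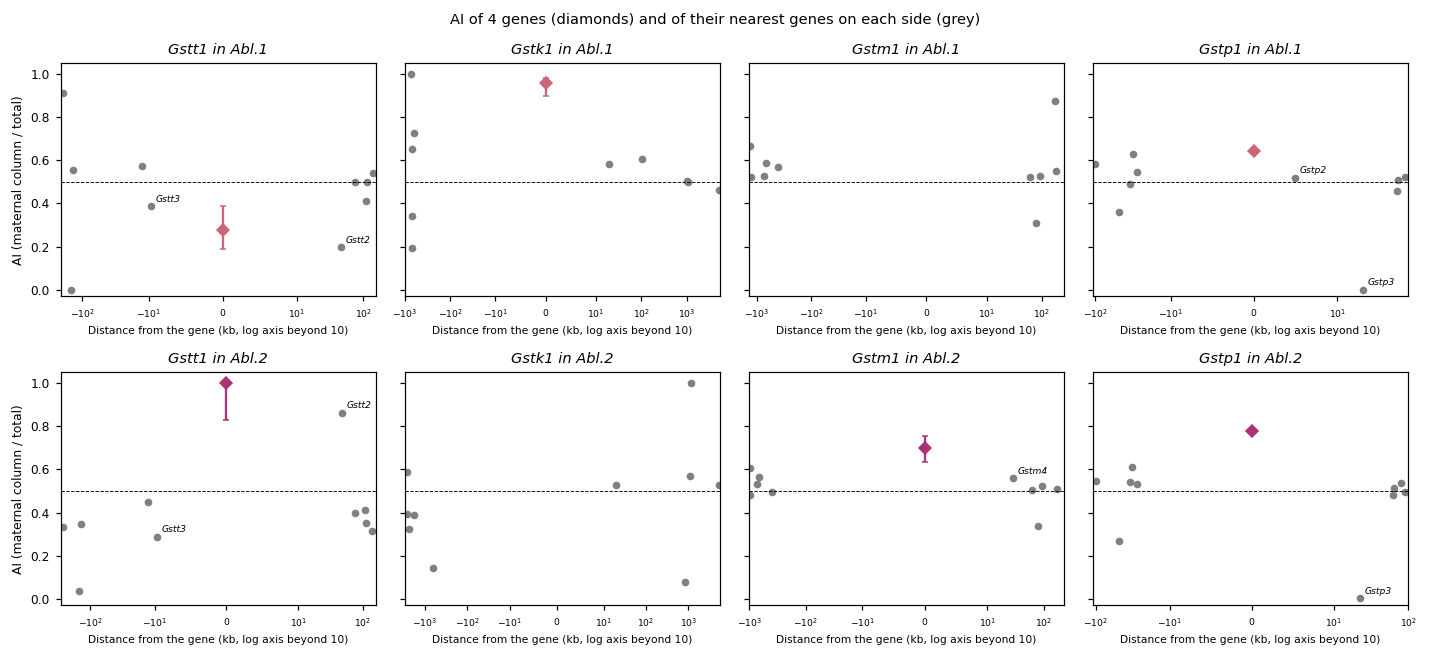
Pooled AI (vertical axis) of Gstt1, Gstk1, Gstm1 and Gstp1 (diamonds with QCC-corrected 95% intervals, where counts reached 50) and of the 5 nearest genes on either side (grey points) against distance in kb (log axis beyond 10), in Abl.1 above and Abl.2 below. Gstt1 is at 1 in Abl.2 where 9 of 10 neighbours are below 0.5, and Gstk1 is at 0.957 in Abl.1 where Casp2, its nearest neighbour, is at 0.581.

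The wider lists were tested against Experiment 2 in the same fits. Of all genes, 36.1% were higher and 45.6% lower in Abl.1, and 36.1% higher and 46.9% lower in Abl.2. Of 12 other transferases tested, 8 were lower and 3 higher in Abl.1 than in Experiment 2, and 9 were lower and 2 higher in Abl.2. Gstz1, which acts in tyrosine breakdown, was at 938 CPM in kidney, 113 in Abl.1 and 149 in Abl.2 (levels here are means over libraries). Of 15 glutathione genes, 14 were lower and 1 higher in each clone, with the secreted peroxidase Gpx3 at 3749 CPM in kidney, 2.53 in Abl.1 and 0 in Abl.2. Of 12 NRF2 genes, 8 were lower and 3 higher in Abl.1 and 10 lower and 1 higher in Abl.2, with Cbr1 at 862, 14.1 and 29.8 CPM. These splits depended on scaling. Without TMM the NRF2 genes were 7 lower and 4 higher in Abl.1 and 5 lower and 5 higher in Abl.2, the other transferases 7 lower and 4 higher and 8 lower and 3 higher, and the glutathione genes 12 lower and 1 higher and 14 lower and 1 higher. The list medians on the CPM scale, for genes at 0 taken at their floor, were -1.78 and -2.74 for other transferases, -3.61 and -4.27 for glutathione genes, -1.34 and 0.02 for NRF2 genes and -9.17 and -9.93 for the 10 genes, beside 0.23 and 0.52 for all genes. On the TMM scale the median of the NRF2 list in Abl.2 was -0.85, of the other sign.

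Between the clones, 46.3% of all genes passed, 21.9% higher and 24.4% lower in Abl.2. Of 10 other transferases 4 passed, each lower in Abl.2. The microsomal genes Mgst2 (820 CPM in Abl.1 and 0.945 in Abl.2) and Mgst3 (125 and 0.673 CPM) and Gstt2 (14.0 and 3.37 CPM) led the list. Of 9 glutathione genes, 2 were higher and 5 lower, with Gsr at 223 and 25.9 CPM and the glutathione-degrading Chac1 at 2.36 and 12.03. Levels of the lists in the clones are means of 2 libraries. In Abl.1 these libraries were at 141.3 and 304.5 CPM for Gsr, 586.5 and 1054 for Mgst2 and 92.0 and 158 for Mgst3. Of 9 NRF2 genes, 3 were higher and 2 lower, with Nfe2l2 at 31.9 and 73.9 CPM, the transporter gene Abcc4 at 10.1 and 37.5 and Abcc1 at 28.2 and 16.9. Without TMM, 1 other transferase was higher and 4 lower, 3 glutathione genes were higher and 4 lower, and 4 NRF2 genes were higher and 1 lower. AI differed between the clones for 5 of 9 other transferases, 1 of 7 glutathione genes and 4 of 8 NRF2 genes, beside the 26.4% of all genes.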

How the data were processed

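Allelic RNA-seq of 18 kidney libraries and 4 libraries of the Abl clones was analysed. The 2 resequenced Abl.2 libraries entered only as an alternative. Per the methods of the study, the authors aligned reads with STAR (2.5.4a) against a GRCm38 pseudogenome of each strain, retained uniquely aligned reads, drew libraries of an experiment to equal size, counted reads at SNPs with SAMtools and summed them over exons. The deposited values are these raw counts per gene and allele. From them, CPM and AI were computed. The paper states that counts at SNPs which share a read or read pair are not independent. Intervals from counting error alone can therefore be too narrow. Since unique alignment drops reads that also match a near copy, levels of genes with near copies can be understated.

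Totals were tested with edgeR (4.0.16) in R (4.3.3), quasi-likelihood test, TMM scaling and at least 10 counts, and AI with the same test as an allele by group term beside library terms. All p-values were adjusted over all genes tested by Benjamini-Hochberg with a threshold of 0.05, and intervals are 95%. AI against 0.5 was tested with the proportional test, its variance multiplied by the squared QCC, and Bonferroni adjustment. Alternatives were DESeq2 (1.42.0), minimums of 1 and 20 counts, a replicate block, both Abl.2 runs summed, leaving out each library and, chosen after seeing the data, scaling by allelic totals without TMM. Promoter and motif counts used Python (3.11.15) and numpy (2.4.6). Tests were checked on simulated counts. Genes and lists were chosen with earlier results of these data known. All 10 genes were named, up to 3 genes per list and comparison by smallest adjusted p, and the 5 nearest neighbours on each side. Gm10639, Gstm7, Gstp2, Gstp3, Gstt2, Gstt3, Casp2 and Zyx among them were singled out after their values were seen. Samples were grouped by their labels.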

Additional observations from a re-analysis of the deposited data

Results flagged for a closer look

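In 4 of 60 groups of 6 values (level or AI of 1 gene in 1 kidney experiment), 1 library stood apart from the other 5 by Dixon's criterion, where chance gives about 1 in 20. AI of Gsta3 was 0.498 in replicate 1 of Experiment 1 and 0.554 to 0.579 in the others. The level of Gstm5 was 221 CPM in the same library and 181 to 195 CPM in the others. The level of Gstm1 was 791 CPM in replicate 4 of Experiment 3 and 847 to 878 CPM in the others. AI of Gstm5 was 0.624 in replicate 3 of Experiment 3 and 0.581 to 0.594 in the others.

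Allelic ratios that pointed to opposite columns in the groups compared were those of Gstt1 between the clones, with a log2 difference of 9.64 from Abl.1 to Abl.2, Gstt1 between Experiment 2 and Abl.1 (-1.93), Gstk1 between Experiment 2 and Abl.1 (5.56) and Gstm1 between Experiment 2 and Abl.2 (1.43). Each of these differences passed edgeR's test over all genes, and its adjusted p is given in the report.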

How the results depend on the processing

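Of 2006 values of single genes under alternatives, 1939 kept their direction and their side of the threshold, 15 passed where the main test did not, 32 no longer passed and 20 changed direction, none of them past the threshold in the main test. The 20 came from leaving out 1 library, with these lowest and highest values: AI differences between Experiments 1 and 2 of -0.0895 to 0.0530 for Gstp1 and -0.0057 to 0.338 for Gstm4, and between Experiments 1 and 3 of -0.0172 to 0.139 for Gstp1. Between Experiments 2 and 3, level differences ran from -0.0302 to 0.0087 for Gstp1 and -0.137 to 0.0207 for Gstm4, and AI differences from -0.0612 to 0.00066 for Gstm5, -0.139 to 0.199 for Gstm4 and -0.0414 to 0.0036 for Gsta2. In Abl.2, at 68 and 23 counts, AI was 0.5 to 0.618 for Gstm4 and 0 to 0.692 for Gstk1, whose difference from Experiment 2 ran from -3.90 to 2.23 and passed the test at both ends. The number of genes whose AI differed between Experiments 1 and 2 was 2 in the QCC-corrected test between groups, in place of 4. Between Experiments 1 and 3 it was 1 in that test, 0 with a replicate block and 0 to 3 without 1 library, in place of 2. Between the clones, 3 to 5 levels passed without 1 library, and against 0.5 in Abl.2 1 AI passed without either library, in place of 2, as Gstm1 did not. Replicate numbers did not pair the kidney libraries: deviations of those with the same number correlated at -0.0203 to 0.0269. Those of the clones correlated at 0.152 (levels) and 0.00801 (AI), and 2 libraries per clone cannot settle whether the numbers pair them. The block otherwise removed 1 call, AI of Gstp1 in Abl.1, and changed no other count. Depth limits AI in the clones, where Gstk1, Gstm1 and Gstt1 had as few as 23, 32 and 87 counts per clone, and Gstm4 in kidney.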
